A study of Arabidopsis thaliana with 24 samples.

Results

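The comparison was between root tips of the Arabidopsis thaliana mutant brl3-2 and of the Columbia-0 wild type (WT), both after 2 h of zeocin. It was defined by genotype and treatment and took 3 libraries of each genotype, which is 6 of the 12 libraries of the series. Seedlings of all groups were 6 days old, had grown on plates under long days, and were moved to liquid medium for the 2 h treatment. The zeocin groups had zeocin in that medium, and the mock groups had DMSO. Zeocin, a relative of bleomycin, cuts DNA. Its dose is uncertain, with 10 µM in the sample characteristics and 2 µM in the labels' treatment protocol. The brl3-2 plants came from 1 T-DNA insertion line (SALK_006024C), so an insertion in BRL3 and anything else that this line carries cannot be told apart. The 6 mock libraries, 3 of each genotype, gave the same genotype contrast in samples that the zeocin contrast does not compare. All 12 libraries were fitted together with 1 estimate of the spread, so the p-values of either contrast draw on both treatments.

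BRL3 encodes a receptor kinase of the BRI1 family, which binds brassinosteroids, the plant's steroid hormones, at the cell surface together with the co-receptor BAK1. In Arabidopsis roots, BRI1 is made in most cells, while BRL1 and BRL3 are known from vascular cells and the stem cell niche. Breaks in DNA are sensed by the kinases ATM and ATR, and the transcription factor SOG1 then switches on genes of repair, cell cycle arrest and stem cell replacement.

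Few transcripts separated the genotypes under zeocin. Of 19437 genes tested, 8 passed the test (0.0412%), of which 5 were higher in brl3-2 (0.0257%) and 3 were lower (0.0154%). BRL3 itself was the most significant. The others were 3 transcripts annotated as non-coding (AT2G08735, AT1G06963 and AT4G04223), a transcribed region with no known product (AT3G00560), 2 genes for uncharacterized proteins (AT1G75945 and AT3G29140), and the lectin gene AT5G35940. No gene of DNA repair, the cell cycle, brassinosteroid synthesis or the stem cell niche in the lists described below was among them. The test was edgeR's quasi-likelihood test with Benjamini-Hochberg adjustment, two-sided, at an adjusted p under 0.05. Before adjustment, 412 genes (2.12%) had a p under 0.05 under zeocin and 771 (3.97%) in mock.

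The 250 bases before the annotated start of BRL3, of the genes with the largest rises and of AT5G35940 are printed here because they lie beside the transcripts that separated the genotypes. They are from RefSeq's TAIR10.1 assembly, read 5′ to 3′ on the strand of the gene, and capitals mark the match to a searched motif.
BRL3 (AT3G13380), chr3:4346080-4346329, plus strand: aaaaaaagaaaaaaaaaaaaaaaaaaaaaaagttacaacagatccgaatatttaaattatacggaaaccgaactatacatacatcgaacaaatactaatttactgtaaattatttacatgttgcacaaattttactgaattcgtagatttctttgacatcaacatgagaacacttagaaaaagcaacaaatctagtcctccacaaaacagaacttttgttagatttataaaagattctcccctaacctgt
AT1G75945, chr1:28515917-28516166, minus strand: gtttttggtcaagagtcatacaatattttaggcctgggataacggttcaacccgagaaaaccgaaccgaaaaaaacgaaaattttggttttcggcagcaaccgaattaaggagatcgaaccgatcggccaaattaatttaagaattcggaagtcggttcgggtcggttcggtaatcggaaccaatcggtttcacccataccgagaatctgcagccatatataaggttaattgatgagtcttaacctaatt
AT2G08735, chr2:14907007-14907256, plus strand: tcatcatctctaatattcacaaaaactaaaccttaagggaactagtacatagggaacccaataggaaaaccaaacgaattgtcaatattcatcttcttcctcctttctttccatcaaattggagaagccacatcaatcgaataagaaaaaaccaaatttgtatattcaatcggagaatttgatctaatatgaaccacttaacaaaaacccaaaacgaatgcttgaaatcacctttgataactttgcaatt
AT3G00560, chr3:11104360-11104609, plus strand: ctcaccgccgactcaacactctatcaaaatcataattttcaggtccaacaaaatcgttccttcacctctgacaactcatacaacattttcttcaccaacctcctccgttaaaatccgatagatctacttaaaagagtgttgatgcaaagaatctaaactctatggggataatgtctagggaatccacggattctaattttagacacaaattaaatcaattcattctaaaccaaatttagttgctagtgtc
AT5G35940, chr5:14090324-14090573, plus strand: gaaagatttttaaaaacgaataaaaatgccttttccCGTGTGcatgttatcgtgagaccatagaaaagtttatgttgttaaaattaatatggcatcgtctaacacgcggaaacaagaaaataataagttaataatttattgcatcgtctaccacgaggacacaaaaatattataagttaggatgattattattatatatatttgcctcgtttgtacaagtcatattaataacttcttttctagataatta
The motifs were CGTGCG and CGTGTG, bound by the brassinosteroid factor BZR1, CACGTG, bound by BES1 and many other factors, and the SOG1 motif, all on both strands. Among the 8 genes, the sole match was CGTGTG before AT5G35940, 214 bases from the start. Of 37897 such windows in the genome, 1.39% hold CGTGCG, 5.06% CGTGTG, 5.39% CACGTG and 9.49% the SOG1 motif. A match of this kind is a description of the letters in the window.

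BRL3 (AT3G13380, chromosome 3, bases 4346330 to 4350939, 2 exons) was read at 21.5, 31.7 and 31.2 CPM (counts scaled to library total) in the 3 WT zeocin libraries. In brl3-2 zeocin it was at 1.01, 1.06 and 0.935 CPM. Every mutant library lay far below every WT library. BRL3 was 28.1-fold lower in brl3-2 (log2 −4.81 ± 0.23 SE, n = 3 each, edgeR adjusted p = 2.8e-06). The mutant libraries still held 104 BRL3 counts together, against 3937 in WT. The table counts reads over the whole gene, so it does not say where those reads lie relative to the insertion. Because these are bulk tips, fewer cells of a type and less RNA per cell cannot be told apart for any gene given here.

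In mock the gap was smaller, with 10.9 ± 1.73 CPM (SD, n = 3) in WT and 1.00 ± 0.285 CPM in brl3-2. Under zeocin the means were 28.1 ± 5.75 CPM in WT and 1.00 ± 0.063 CPM in brl3-2. The genotype effect on BRL3 differed between the treatments by −1.37 on the log2 scale (95% interval −2.06 to −0.67, unadjusted p = 0.0012). Over all genes this difference did not pass (edgeR adjusted p = 1.0).

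**Figure D1:**
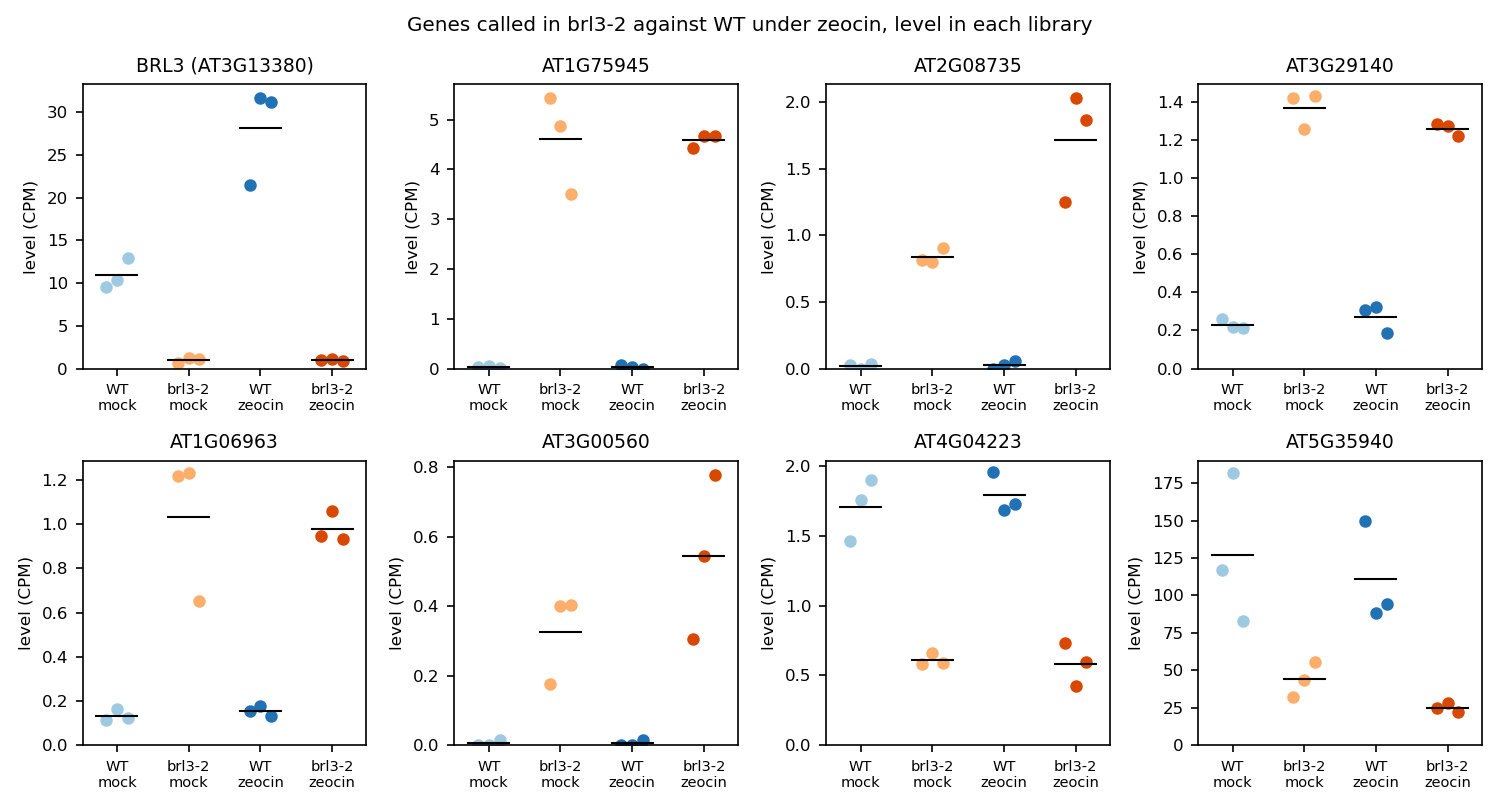
Level in CPM (linear axis from 0, a scale of its own in each panel) of the 8 genes called between genotypes under zeocin, in each of the 12 libraries. Points are libraries and bars are group means of 3. The genotypes do not overlap in any panel, with zeocin or in mock.

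AT1G75945 (chromosome 1, bases 28515245 to 28515916, minus strand, 2 exons) encodes a protein of unknown function. Its level under zeocin was 0.0613, 0.0296 and 0 CPM in WT and 4.43, 4.67 and 4.67 CPM in brl3-2. It was nearly silent in WT and present at an even level in each mutant library. The count was 3 in WT and 479 in brl3-2, a ratio of 208 after scaling for depth (95% counting interval 70.8 to 1010, edgeR adjusted p = 2.3e-05).

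AT2G08735 (chromosome 2, bases 14907257 to 14907716, plus strand, 1 exon) is annotated as a long non-coding RNA. It was at 0, 0.0296 and 0.0576 CPM in WT and at 1.25, 2.03 and 1.87 CPM in brl3-2. The pattern was the same, close to none in WT and clearly present in the mutant. Counts were 5 and 180, a ratio of 46.9 (19.7 to 146, edgeR adjusted p = 0.00082).

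AT3G29140 and AT3G00560 are neighbours on chromosome 3, and both were higher in brl3-2. AT3G29140 (bases 11105746 to 11106144, plus strand) encodes a protein of unknown function and stood at 0.306, 0.326 and 0.187 CPM in WT. In brl3-2 it stood at 1.28, 1.27 and 1.22 CPM (log2 2.26 ± 0.24, edgeR adjusted p = 0.0055), with the groups well apart. AT3G00560 (bases 11104610 to 11105261, plus strand) ends 484 bases before AT3G29140 starts. It had 1 count in the 3 WT libraries and 58 in the 3 brl3-2 libraries, a ratio of 75.6 (13.0 to 3040, edgeR adjusted p = 0.031).

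On the other side of AT3G00560, 536 bases away and read in the opposite direction, lies AT3G29130, annotated as a kxDL motif protein. It was not called, at log2 0.57 ± 0.13 (unadjusted p = 0.0010, edgeR adjusted p = 1.0), although its brl3-2 libraries lay above the WT libraries under zeocin and in mock (log2 0.53 in mock). It was named after its value was seen. Of 9 tested genes within 50 kb of AT3G00560, AT3G29140 was the 1 called. No other tested gene was called within 50 kb of BRL3, AT1G75945, AT2G08735, AT1G06963, AT4G04223 or AT5G35940.

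AT1G06963 (chromosome 1, bases 13501086 to 13502283, plus strand) is annotated as a long non-coding RNA. It was at 0.153, 0.178 and 0.130 CPM in WT and at 0.947, 1.06 and 0.935 CPM in brl3-2. Every mutant library lay above every WT library (log2 2.69 ± 0.32, edgeR adjusted p = 0.012). AT1G06963 and AT3G00560 stayed under 1 CPM in both group means and were named after their values were seen.

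AT5G35940 (chromosome 5, bases 14090574 to 14093007, plus strand, 5 exons) encodes a protein of the mannose-binding lectin superfamily, whose members bind sugars. Apart from BRL3 it was the one called gene above 10 CPM. It stood at 150, 88.6 and 94.4 CPM in WT zeocin and at 24.8, 28.1 and 22.1 CPM in brl3-2 zeocin. The WT libraries varied more than the mutant libraries, but even the lowest was far above the highest mutant library. The gene was 4.43-fold lower in brl3-2 (log2 −2.15 ± 0.30, edgeR adjusted p = 0.037).

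AT4G04223 (chromosome 4, bases 2036511 to 2037816, plus strand) is annotated as a non-coding RNA. It fell from 1.96, 1.69 and 1.73 CPM in WT to 0.733, 0.424 and 0.597 CPM in brl3-2 (log2 −1.61 ± 0.22, edgeR adjusted p = 0.031), with no overlap. Its exons match 6 other places in TAIR10.1 at 90% identity or more over at least 100 bases, the best at 99.4% over 310 bases, so its reads may be shared and its value is uncertain. None of the exons of the other called genes had such a match.

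The calls differed in how many libraries they needed. BRL3, AT1G75945 and AT2G08735 passed in each of the 14 alternative fits, and AT3G29140 in 12 of 14. With any 1 of the 6 zeocin libraries left out, 4 to 5 genes were called. AT1G06963, AT4G04223 and AT5G35940 lost their calls whichever of the 6 libraries was left out (edgeR adjusted p up to 0.155, 0.214 and 0.342 in these 6 fits), and AT3G00560 kept its call in 1 of these 6 fits. All kept their direction.

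**Figure D2:**
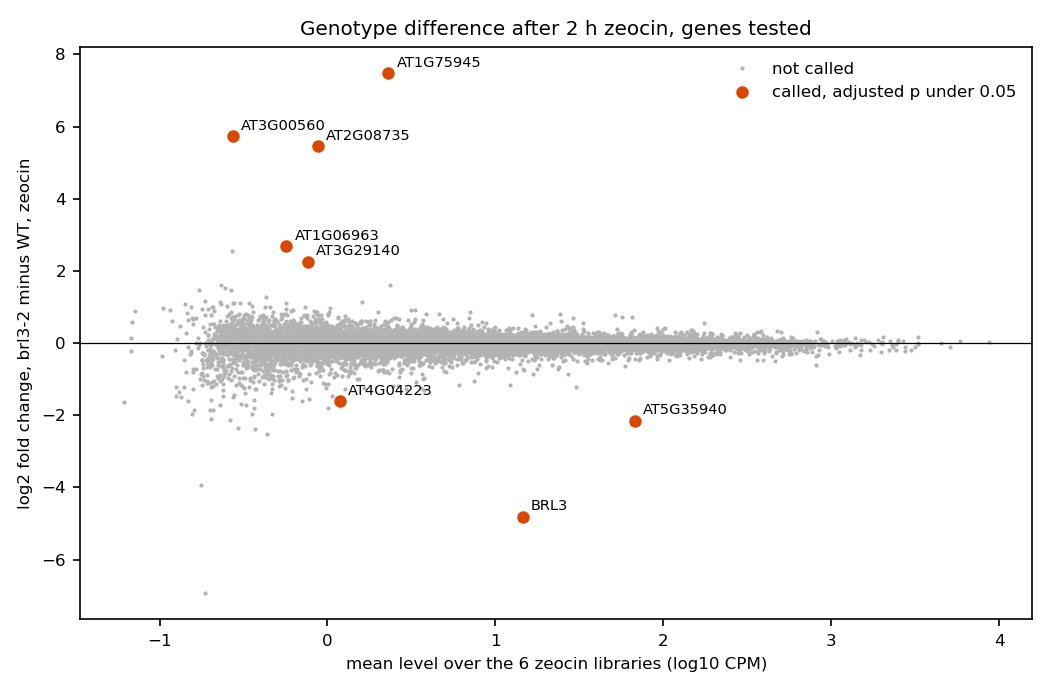
Log2 fold change of brl3-2 against WT under zeocin for the 19437 genes tested, against the mean level over the 6 zeocin libraries (log10 CPM). Grey points are genes not called and orange points the 8 called. BRL3 and AT5G35940 are the called genes above 10 CPM, and the widest scatter of grey points is at low levels.

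Genes called without zeocin were among those called with it. In mock, 5 genes were called (0.0257% of 19437), and these were BRL3, AT1G75945, AT2G08735, AT3G29140 and AT1G06963. They are 5 of the 5 called in mock and 5 of the 8 called under zeocin. The count of AT1G75945 was 4 in WT mock tips and 470 in brl3-2 mock tips (ratio 159, 61.8 to 587, edgeR adjusted p = 4.8e-05), and AT2G08735 had 3 and 85 (ratio 38.4, 12.7 to 190, edgeR adjusted p = 0.0051). AT3G29140 and AT1G06963 were higher in brl3-2 mock by 2.58 ± 0.24 and 2.95 ± 0.32 on the log2 scale (edgeR adjusted p = 0.0020 and 0.0052).

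The 3 other genes did not pass in mock, but their libraries did not overlap there either. AT5G35940 was at 117, 182 and 82.7 CPM in WT mock and at 32.3, 43.8 and 55.4 CPM in brl3-2 mock (log2 −1.54 ± 0.29, edgeR adjusted p = 0.46). AT4G04223 differed by −1.49 ± 0.22 (edgeR adjusted p = 0.073). AT3G00560 had 1 count in WT and 33 in brl3-2 (ratio 44.7, 7.49 to 1820, edgeR adjusted p = 0.16).

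Whether the genotype effect changed with zeocin was tested directly, as the difference between the zeocin and the mock contrast. No gene was called by edgeR, DESeq2 or limma-voom. In edgeR 194 genes (0.998%) had an unadjusted p under 0.05. Without WT mock replicate 3 this number was 884, and no gene was called there either. For AT5G35940 the difference was −0.61 on the log2 scale with a 95% interval of −1.51 to 0.28, and for AT3G29140 it was −0.32 (−1.09 to 0.44). A p that misses the threshold does not show that the effects were equal.

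Counted without a model, the 3 brl3-2 zeocin libraries all lay above or all below the 3 WT zeocin libraries for 1462 genes (7.52%), with 4.25% of genes above and 3.27% below. In mock this held for 1500 genes (7.72%), with 4.06% above and 3.66% below, and for 169 genes (0.869%) it held in both with the same direction. At least 2-fold in both treatments left 14 genes, which are the 8 called under zeocin and 6 more. These 6 were named after their values were seen, and edgeR called none of them. With 3 libraries against 3, genes that do not differ can also lie all above or all below. Lack of overlap alone therefore shows no genotype effect.

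Of these 6, AT2G06995, annotated as a long non-coding RNA, was read 11, 13 and 28 times in the WT zeocin libraries and in none of the brl3-2 libraries of either treatment. With a floor of 3 counts for a group's total, it was at least 13.3-fold lower in brl3-2 under zeocin and at least 11.8-fold lower in mock. It missed the threshold in edgeR (adjusted p = 0.14). Its adjusted p was 0.0052 in DESeq2 and 0.00059 in limma-voom. It shares 1 match of 95.9% identity over 392 bases with another place in the genome.

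AT3G29633, for a protein of unknown function, had 47 counts in WT zeocin and 2 in brl3-2 zeocin (WT over brl3-2 ratio 18.0, 4.72 to 153, edgeR adjusted p = 0.27). The other 4 were lower in brl3-2 by 1.12 to 1.43 on the log2 scale under zeocin, none of them called. They were AT1G24430 (an acyl-transferase family gene), AT1G53887, AT4G01390 (a TRAF-like family gene) and NRT2.1 (AT1G08090). NRT2.1, a high-affinity nitrate transporter of the root, was at 0.398, 0.711 and 0.821 CPM in WT zeocin and 0.305, 0.242 and 0.338 CPM in brl3-2 zeocin (log2 −1.14 ± 0.48, edgeR adjusted p = 1.0).

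**Figure D3:**
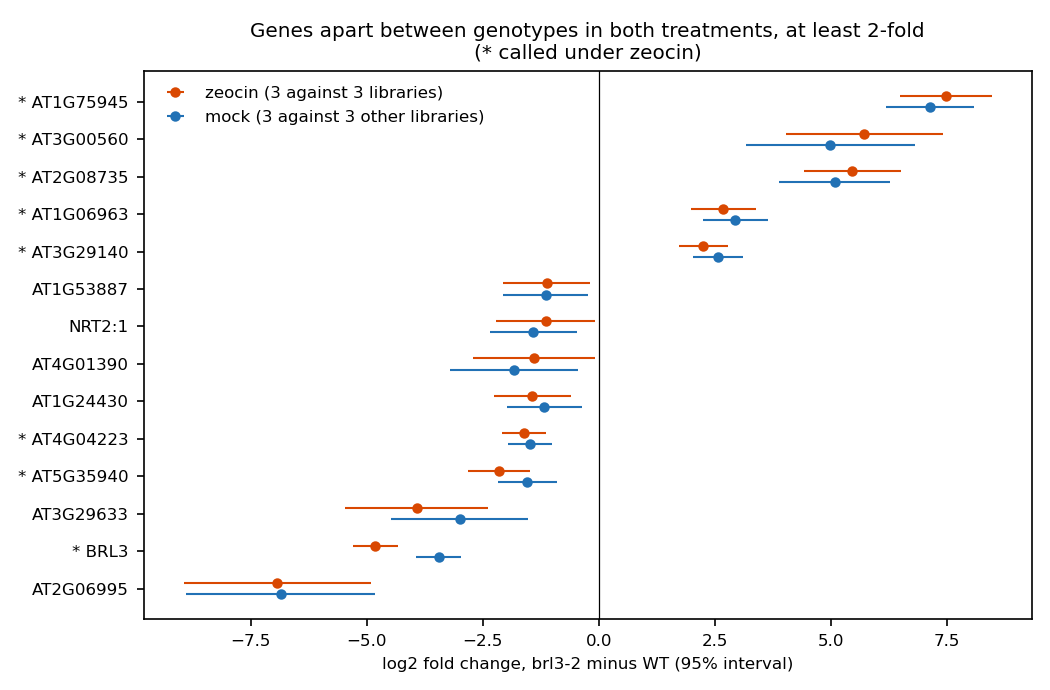
Log2 fold change of brl3-2 against WT with 95% intervals, under zeocin (orange) and in mock (blue), for the 14 genes whose libraries did not overlap between genotypes in either treatment and that differed at least 2-fold in both. Stars mark the 8 called under zeocin. Effects lie on the same side of 0 in both treatments, which the choice of the 14 fixes. The log2 fold change of BRL3 is further below 0 under zeocin than in mock.

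The precision differed with the level of a gene. The median 95% interval of a log2 difference reached 0.279 to either side. For 17300 genes (89.0%) the interval lay within 2-fold in both directions, and this was so for 98.6% of genes between 10 and 100 CPM and for 31.7% of genes under 1 CPM. Of 127 genes with a difference of at least 2-fold, 104 were under 1 CPM.

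BRL3 was set beside its relatives BRI1, BRL1 and BRL2 and the co-receptor gene BAK1, per kilobase of exon so that their levels can be compared. In WT zeocin BRI1 stood at 62.5 ± 0.634 CPM per kb (SD, n = 3), BAK1 at 52.7 ± 2.65, BRL2 at 11.1 ± 0.842, BRL3 at 6.22 ± 1.27 and BRL1 at 0.879 ± 0.226. All neighbours in this order lay apart by more than their spread. In brl3-2 zeocin BRI1 was at 66.2 ± 2.31 CPM per kb, BAK1 at 50.3 ± 3.40, BRL2 at 10.9 ± 1.38, BRL1 at 0.798 ± 0.138 and BRL3 at 0.222 ± 0.014.

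None of these genes besides BRL3 passed. The log2 difference was 0.08 for BRI1 (95% interval −0.05 to 0.22), −0.15 for BRL1 (−0.58 to 0.27), −0.03 for BRL2 (−0.25 to 0.18) and −0.07 for BAK1 (−0.28 to 0.14). For these 4 genes the interval leaves out a 2-fold difference in either direction. BRI1 was read at 276, 271 and 273 CPM in WT and 295, 278 and 295 CPM in brl3-2, a narrow gap without overlap.

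**Figure D4:**
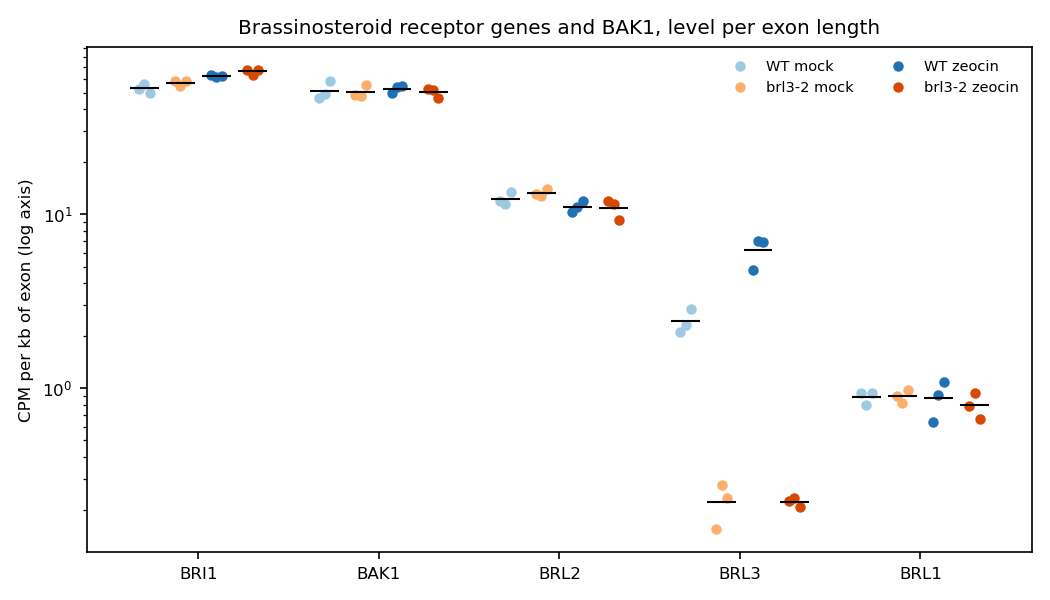
Level per exon length (CPM per kb, log axis) of BRI1, BAK1, BRL2, BRL3 and BRL1 in each of the 12 libraries, in 4 groups of 3. Points are libraries and bars are group means. BRL3 drops to 0.222 CPM per kb in both brl3-2 groups, and none of the 4 other genes shows such a drop.

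Of the 19 genes of brassinosteroid perception and signalling, all tested, none besides BRL3 was called. They included the kinase BIN2, which holds the pathway off, at −0.04 ± 0.07, and the transcription factors BZR1 at 0.03 ± 0.10 and BES1 at 0.18 ± 0.10. The median of the whole list of 19 was −0.02, beside 0.00 for all genes. Of 11 genes of hormone synthesis and breakdown, none was called, and the median was 0.00. These genes include DWF4 and CPD, which active signalling is known to hold down, at −0.13 ± 0.13 and 0.09 ± 0.08. BR6OX1, an oxidase of late synthesis, had the smallest unadjusted p of that list (0.34 ± 0.19, edgeR adjusted p = 1.0). Of the 5 tested of 8 brassinosteroid-responsive genes none was called either (median 0.06), with the auxin and brassinosteroid target IAA19 at 0.13 ± 0.13 (0.03 without WT zeocin replicate 1).

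Around BRL3, the nearest tested neighbours were AT3G13350 and WIP3 (AT3G13360) before it and AT3G13404 and AT3G13410 behind it. Their log2 differences were 0.08, −0.03, 0.48 and −0.04, and none was called. Of 226 genes tested within 500 kb of BRL3, BRL3 was the sole gene called. Of the other 225, at most 9 had an unadjusted p under 0.05, beside 412 of all 19437 genes (2.12%).

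Most DNA damage response genes had values slightly above 0 in brl3-2 against WT under zeocin, and none passed the test. Of 20 listed genes 19 were tested and edgeR called 0. Of the 19, 17 had a value above 0 (89.5%, beside 50.8% of all genes), and 6 had an unadjusted p under 0.05 (beside 2.12% of all genes). The median log2 difference was 0.20, beside 0.00 over all genes, and in mock the list's median was 0.03 with 14 of 19 above 0.

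XRI1 (AT5G48720), a gene of meiotic and repair function known as induced by X-rays, was at 766, 755 and 701 CPM in WT zeocin and 937, 930 and 873 CPM in brl3-2 zeocin. RAD17 (AT5G66130), of the checkpoint clamp loader, was at 136, 134 and 127 CPM in WT and 165, 156 and 147 CPM in brl3-2. For both genes each mutant library lay above each WT library by a small margin. The differences were 0.30 ± 0.09 for XRI1 and 0.24 ± 0.06 for RAD17, with unadjusted p of 0.0051 and 0.0025 and edgeR adjusted p = 1.0 for both.

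In mock the same 2 genes differed by 0.01 ± 0.09 and −0.01 ± 0.06. The difference between the treatments had an unadjusted p of 0.039 for XRI1 and 0.017 for RAD17 and did not pass over all genes. The replication protein gene RPA1E (0.27 ± 0.08), the cell cycle inhibitor gene SMR4 (0.29 ± 0.10) and the cohesin gene SYN2 (0.24 ± 0.11) were also without overlap under zeocin, which makes 5 of 19 (26.3%, beside 4.25% of all genes). The ribonucleotide reductase gene RNR1 stood at 360, 368 and 236 CPM in WT and 420, 424 and 358 CPM in brl3-2, where the groups overlapped. The repair gene BRCA1 (0.29 ± 0.17), the CDK inhibitor gene SMR7 (0.20 ± 0.12) and the mitotic cyclin gene CYCB1;1 (0.20 ± 0.12) overlapped as well. Apart from RAD17, the members of this list were named after their values were seen.

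These values moved with single libraries. The members of the list were read in the same libraries, so they are not independent observations of the genotype. The list's median was 0.12 with 15 of 19 above 0 without WT zeocin replicate 3, and 0.12 without brl3-2 zeocin replicate 2. It was 0.28 without brl3-2 zeocin replicate 3. WT zeocin replicate 3 was sequenced deepest, at 73481046 counts, against 32668516 to 38276389 in the other zeocin libraries. Both WT libraries numbered 3 were also thinned to the mean depth of the others, a fit chosen after seeing the data. In that fit the list's median was 0.20, with 17 of 19 above 0.

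Genes that sense damage and join broken ends lay closer to 0. Of 10 tested none was called, 5 were above 0, and the median was 0.01. The kinase ATM was at 0.00 ± 0.14, the transcription factor SOG1 at −0.04 ± 0.06 and the nuclease MRE11 at 0.09 ± 0.06. For all 10 the 95% interval lay within 2-fold.

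Of 12 genes of S phase and replication, all had values above 0 and none was called (median 0.14). The smallest unadjusted p was that of CDC6, which licenses replication origins (0.23 ± 0.10, edgeR adjusted p = 1.0). This count rested on WT zeocin replicate 3, since without it 6 of 12 were above 0 and the median was 0.03. With the WT libraries numbered 3 thinned but kept, 12 of 12 were above 0 and the median was 0.13. In mock 11 of 12 were above 0, with a median of 0.13. Of 13 cyclins and mitotic regulators none was called (10 above 0, median 0.09), and CYCB2;1, a mitotic cyclin, was at 0.21 ± 0.12.

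Of 12 stem cell niche genes 11 were tested and none was called. Of these, 3 had values above 0 and 8 below, the median was −0.07, and for 9 the 95% interval lay within 2-fold. WOX5, the marker gene of the quiescent centre, was at 0.613, 0.296 and 0.561 CPM in WT zeocin and 0.366, 0.273 and 0.260 CPM in brl3-2 zeocin. Its groups overlapped, and the difference was −0.73 ± 0.36 (95% interval −1.52 to 0.06, edgeR adjusted p = 1.0). The values of the 11 genes ran from that of WOX5 to 0.48 for AGL42, a gene expressed in the quiescent centre, whose interval was −1.01 to 1.96.

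ERF115, which drives replacement of damaged stem cells, had too few reads to be tested. It was read 6, 1 and 11 times in the WT zeocin libraries and 0, 3 and 0 times in the brl3-2 zeocin libraries. The counts overlap between the groups, and the WT over brl3-2 ratio was 4.6 after scaling for depth (95% counting interval 1.34 to 24.4, for counting error only). In mock the counts were 11 in WT and 12 in brl3-2 (WT over brl3-2 ratio 0.677, 0.270 to 1.67). It was named after its values were seen. Of the 7 other genes of its list none was called (median −0.08). Its close relative ERF114 was at 0.613, 0.207 and 0.461 CPM in WT zeocin and 0.0916, 0.152 and 0.0519 CPM in brl3-2 zeocin, without overlap (log2 −2.12 ± 1.04, 95% interval −4.40 to 0.16, edgeR adjusted p = 1.0).

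**Figure D5:**
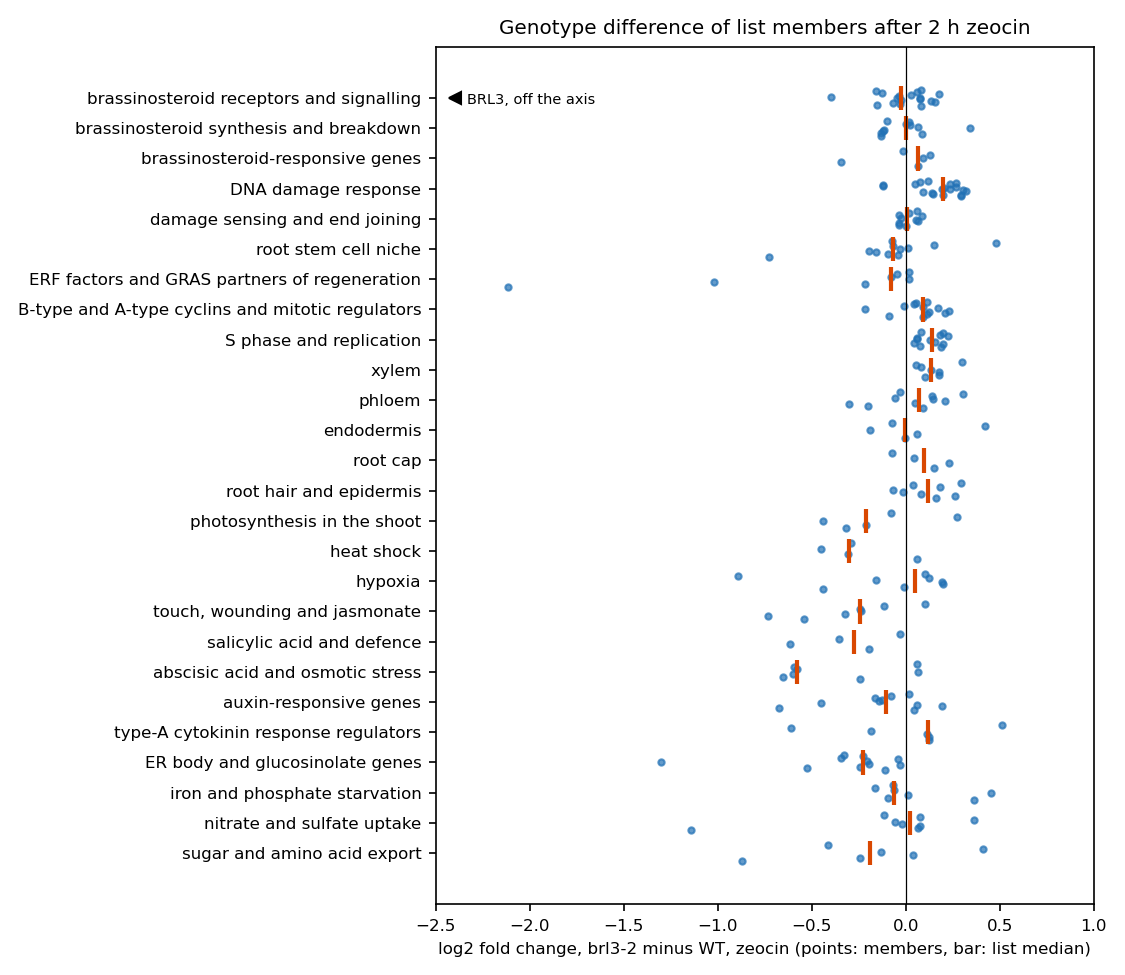
Log2 fold change of brl3-2 against WT under zeocin for each tested member (points) of the 26 gene lists, with the list median as an orange bar. BRL3, at −4.81, lies off the axis and is drawn as a triangle. Medians lie between −0.58 and 0.20, and no member other than BRL3 was called.

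The tissue label gives root tips, and markers of the root tissues were present under zeocin in both genotypes. Of the tested xylem (7), phloem (10), endodermis (5), root cap (4) and root hair and epidermis (8) genes none was called, with medians of 0.13, 0.07, −0.01, 0.10 and 0.12. The summed level of the xylem markers was 258 to 346 CPM in WT and 301 to 385 CPM in brl3-2, and that of the niche markers 179 to 188 and 171 to 190 CPM. The root cap sum, 24.1 to 25.6 CPM in WT and 26.1 to 29.1 CPM in brl3-2, was the one without overlap. The members with the smallest p were LAC4 (0.30 ± 0.16), SEOR1 (−0.20 ± 0.16), ESB1 (0.42 ± 0.26), BRN1 (0.23 ± 0.16) and GL2 (0.16 ± 0.10). Single libraries moved 3 of these values. LAC4 was at 0.16 without WT zeocin replicate 1, and SEOR1 at −0.35 and −0.04 without brl3-2 zeocin replicates 1 and 3. GL2 was at 0.10, 0.25 and 0.08 without WT zeocin replicate 2 and brl3-2 zeocin replicates 2 and 3. The 8 shoot photosynthesis markers summed to 40.2 to 52.3 CPM in WT and 28.1 to 48.1 CPM in brl3-2, with RBCS3B at 0 in all 6 libraries.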

How the data were processed

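The authors deposited raw gene-level read counts as 1 table with a column for each of 12 libraries. The labels describe 24 samples, 12 libraries in 2 sequencing runs, and columns were matched by the names in their titles. Per the labels, the 3 libraries of a group are biological replicates, RNA was from root tips, and the kit was TruSeq Stranded mRNA. The submitters' processing notes list HISAT2 2.1, featureCounts 1.6.2, edgeR 3.34.1, Trimmomatic 0.38 and FastQC 0.11.2, with genome build TAIR10. Not given in the sources used here are their settings, the use of strand and whether runs were added. The exons of BRL3 overlap exons of the opposite strand over 0.0886% of their length, and those of the other called genes over none.

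Of 33297 rows, 1 has no name (at most 0.0039% of a library's count) and was left out. Symbols, coordinates and sequences are from RefSeq TAIR10.1, which 33011 of 33296 loci matched. Genes were filtered with filterByExpr (minimum count 10, minimum total 15), scaled by TMM, and fitted with edgeR 4.0.16 (R 4.3.3) in a quasi-likelihood model of 4 groups over all 12 libraries, which share 1 estimate of the spread. Each SE is the log2 difference divided by the square root of F. It can be smaller than counting error where a group holds few reads. Count ratios with exact 95% intervals are given for some of these genes. For the others, among them ESM1 and NRT2.1, the SE stands alone. Intervals and floors of counts cover counting error only. CPM values carry the TMM scaling.

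The genes, the 26 lists (249 entries, 224 tested) and the tests were chosen with earlier results of these data known. Named by rule are BRL3, called genes of at least 1 CPM whose groups do not overlap, and the neighbours of BRL3. In each list the rule names its called members or else that with the smallest p. Other list members, among them BRI1, BRL1, BRL2, BAK1, BIN2, BZR1, BES1, DWF4, CPD, ATM, SOG1, AGL42 and BGLU23, fall outside this rule. The fit was tested on simulated data. The alternatives were RLE factors, DESeq2 1.42.0, limma-voom (limma 3.58.1), no filter, a replicate block, fits without single libraries or without both WT libraries numbered 3, only the groups compared, and, chosen after seeing the data, thinning of those 2 libraries. Sequence matches were searched with blastn 2.17.0. Within groups, pairs of libraries differed beyond counting noise (a chi-square of 7.81 to 99.6 per degree of freedom).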

Additional observations from a re-analysis of the deposited data

How the results depend on the processing

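BRL3 stayed called in each alternative (log2 −4.97 to −4.72). The 8 calls under zeocin became 8 with RLE factors or no filter, 9 in limma-voom, 12 in DESeq2, 7 with the deep libraries thinned (chosen after seeing the data), 5 with only the groups compared, 4 without both WT libraries numbered 3, and 4 to 5 with 1 library left out. The added calls were AT2G06995 in both other tools and AT2G22540, AT3G57550 and AT4G12040 in DESeq2. Same-numbered zeocin libraries did not deviate together (correlations −0.212, 0.187 and −0.124). In mock the correlations were 0.288, 0.0953 and 0.399, beside −0.456 to 0.259 for libraries of different number. The main fit did not take the numbers as pairs, which the mock values do not settle. With the replicate block 6 genes were called under zeocin, without AT4G04223 and AT5G35940. With it, genes with an unadjusted edgeR p under 0.05 numbered 559 in place of 412 under zeocin and 928 in place of 771 in mock. AT3G29140 lost its call without both WT libraries numbered 3 and with only the groups compared (edgeR adjusted p up to 0.14). In mock, 5 calls became 12 in DESeq2 and 2 with only the groups compared. Neither the called genes nor the member of each list with the smallest p changed direction in the fits run on them. Depth limits genes under 1 CPM most.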

Other observations

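Stress, hormone and nutrient genes also held no call between genotypes under zeocin. The 11 tested genes of endoplasmic reticulum bodies and glucosinolates, a defence system of the root, all had values below 0 under zeocin (median −0.23), while 10 of 11 were above 0 in mock (median 0.23). ESM1, a modifier of glucosinolate breakdown, was at 0.398, 0.326 and 0.302 CPM in WT zeocin and 0.153, 0.152 and 0.104 CPM in brl3-2 zeocin (log2 −1.30 ± 0.30, unadjusted p = 0.0016, edgeR adjusted p = 1.0). In mock ESM1 lay the other way, at 0.172, 0.193 and 0.181 CPM in WT and 0.320, 0.286 and 0.311 CPM in brl3-2 (log2 0.74 ± 0.29). The difference between the treatments had an unadjusted edgeR p of 0.00042 and did not pass over all genes. These levels rest on few reads. BGLU23, the main glucosidase of these bodies, was at 2113, 2462 and 2709 CPM in WT and 2802, 2381 and 1574 CPM in brl3-2, with overlap. With 1 zeocin library left out, 9 to 11 of the 11 were below 0.

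Abscisic acid and osmotic stress genes had the lowest list median (−0.58 over 7 tested, −0.43 in mock), with RD29A, a gene of drought and cold response, at −0.65 ± 0.37. RD29A was at 24.5, 19.8 and 42.9 CPM in WT and 23.3, 18.8 and 13.6 CPM in brl3-2, where the groups overlapped, and its difference was −0.25 without WT zeocin replicate 3. The medians were −0.28 for salicylic acid and defence (PAD4 −0.35 ± 0.19), −0.24 for touch, wounding and jasmonate (WRKY33 −0.24 ± 0.16) and −0.30 for heat shock (HSP70 −0.29 ± 0.13). These 3 medians rest on 4 tested genes of 8, 7 of 10 and 4 of 6. In mock they were −0.09, 0.10 and −0.16. For hypoxia the median was 0.05 (PCO1 −0.89 ± 0.37), for auxin-responsive genes −0.10 (IAA5 −0.67 ± 0.44) and for type-A cytokinin response regulators 0.12 (ARR7 −0.61 ± 0.36). Single libraries moved several of these values. PAD4 was at −0.15 and HSP70 at −0.16 without brl3-2 zeocin replicate 3, and IAA5 at −0.19 without WT zeocin replicate 2. WRKY33 was at −0.07 and −0.38 without WT zeocin replicates 2 and 3.

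Nitrate and sulfate uptake had a median of 0.02, with NRT2.1 given above, iron and phosphate starvation one of −0.06 (BHLH38 0.45 ± 0.47), and sugar and amino acid export one of −0.19 (SWEET2 −0.41 ± 0.21). BHLH38 was at 0.10 and 0.84 without WT zeocin replicates 1 and 2, and SWEET2 at −0.19 without WT zeocin replicate 3. The photosynthesis list had a median of −0.21 under zeocin (LHCA1 −0.44 ± 0.29) and 2.55 in mock. In mock, brl3-2 replicate 2 held 247 CPM of these genes together, against 24.4 to 50.8 CPM in the other 5 mock libraries. Without this library edgeR still called 5 genes in mock, and genes with an unadjusted p under 0.05 numbered 568 in place of 771. Without WT mock replicate 3, edgeR called 4 genes in mock, and 2226 had an unadjusted p under 0.05. WT mock replicate 3 stood furthest from its group, with a chi-square per degree of freedom of 92.7 against replicate 1 and 99.6 against replicate 2. The mock contrast and the difference between the treatments therefore depend on this library.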
